A study of Mus musculus with 9 samples.

Results

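The genes that encode core and linker histones were followed from primary spermatogonial stem cells (SSC) to 2 kinds of induced pluripotent stem cells (iPSC). Members were the 82 protein-coding genes, of 21992 in the mouse GENCODE M21 annotation of GRCm38, whose symbol starts with Hist1h, Hist2h, Hist3h or Hist4h (67 genes, called cluster genes here) or with H1f, H2af or H3f (15 genes outside the clusters). They were found in the deposited expression table by chromosome, start and end. All cells came from mice of 1 strain with a pair of alleles, Gt(ROSA)26Sortm1(rtTA*M2)Jae, which gives the transactivator that doxycycline turns on, and Col1a1tm3(tetO-Pou5f1,-Sox2,-Klf4,-Myc)Jae, which carries the Yamanaka factors Pou5f1, Sox2, Klf4 and Myc behind a tetO promoter, so the SSC carried the same alleles as the iPSC. The groups were primary SSC at passage 0, sorted on magnetic beads for the receptor Gfra1 from testes of pups in their first postnatal week (n = 3), iPSC derived from SSC (SSCiPSC, n = 3) and iPSC derived from fetal fibroblasts of male fetuses (fiPSC, n = 3). Both iPSC types were derived as clonal lines with LIF and doxycycline on feeder cells and were purified for the surface antigen SSEA1. The labels give passage 10-11 and a medium with doxycycline, whereas the study's methods give a later passage for the purified cells and a stepwise withdrawal of doxycycline that ended before either passage. The fibroblasts themselves were not analysed here. The libraries are described as biological samples, but no source used here says whether the 3 of a group came from separate cultures or animals, so p-values measure the spread between these libraries, which may be technical.

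Core histones (H2A, H2B, H3 and H4) form the nucleosome and linker histones (H1) bind where DNA enters and leaves it. Most are made from cluster genes in S phase, when new DNA must be packaged, and the mRNAs of these genes end in a stem-loop in place of a poly(A) tail; the stem-loop is bound by Slbp. The genes outside the clusters mostly encode variants that are made throughout the cell cycle from polyadenylated mRNA and are exchanged into chromatin by dedicated chaperones. In the male germ line, testis variants such as TH2A (Hist1h2aa) and TH2B (Hist1h2ba) replace much of the canonical H2A and H2B.

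The stem-loop is shown because it separates the gene classes and because library chemistry can act on it. Among GENCODE transcripts, those of 46 of the 67 cluster genes (68.7%) held the histone stem-loop, a stem of 6 paired bases around a loop of 4, against 1 of the 15 other histone genes (6.67%) and 16 of 10650 other protein-coding genes with a locus (0.150%). The exception was H2afx, the variant phosphorylated at DNA breaks. Only annotated transcripts were searched, so the count of cluster genes may be too low. Some transcripts without the stem-loop were short, such as those of Hist1h4k (312 bases), Hist1h2bl (381 bases) and Hist1h2ai (393 bases). A stem-loop beyond their annotated ends would be missed. Others, such as that of Hist2h2be (2620 bases), were long. The same 16 letters occurred in 26 cluster genes of the H1, H2A, H2B and H3 types. Capitals mark the stem-loop, with the flanking bases of the transcript in lower case.
Hist1h2bk: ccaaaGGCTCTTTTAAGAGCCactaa
Hist1h4i: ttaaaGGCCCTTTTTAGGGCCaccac
Hist4h4: acaaaGGCCCTTTTCAGGGCCcacaa
Hist3h2a: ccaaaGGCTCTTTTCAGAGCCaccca
H2afx: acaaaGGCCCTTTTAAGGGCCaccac
The annotated transcript of Hist1h2bk ran for 30 bases past the stem-loop and that of Hist4h4 for 2445 bases, so the latter annotation reads through it. The annotated transcripts of Hist1h2aa (390 bases) and Hist1h2ba (384 bases) held no such letters, which says nothing of the mRNA beyond their annotated ends. The sources name both ribosomal RNA depletion and a stranded mRNA kit, and whether poly(A) RNA was selected is not given. A change in the level of a cluster mRNA and a change in the share of it that has a poly(A) tail cannot be told apart in such libraries.

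Promoters are shown for 3 cluster genes whose loci moved in opposite directions. RefSeq starts (GRCm38.p6) were found for 76 of the 82 members. In the 250 bases before the start, the octamer ATTTGCAT, searched like all motifs on both strands, occurred in 13 of 62 cluster promoters (21.0%), 1 of 14 promoters of the other histone genes (7.14%) and 1.60% of all 32851 RefSeq promoters. Within the clusters it occurred in 7 of 18 H2A and 6 of 16 H2B promoters and in none of 6 H1, 10 H3 and 12 H4 promoters. CCAAT occurred in 82.3% of cluster promoters against 33.8% of all promoters, TATAAA in 46.8% against 12.4%, TTTCGCGC (an E2F site) in 11.3% against 0.256% and TGACGTCA (a cAMP response element) in 6.45% against 1.55%. Windows of divergent neighbours can overlap, so the same site can count for both genes. Hist1h2ah and Hist1h2bk, for example, share their octamer. The counted promoters are therefore not independent. Capitals mark these motifs.
Hist1h2ba, chr13:23934157-23934406, minus strand: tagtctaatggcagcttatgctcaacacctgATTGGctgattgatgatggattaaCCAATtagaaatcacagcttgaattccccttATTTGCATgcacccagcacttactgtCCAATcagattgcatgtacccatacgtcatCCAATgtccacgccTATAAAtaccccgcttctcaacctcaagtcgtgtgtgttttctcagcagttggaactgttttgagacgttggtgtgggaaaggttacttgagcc
Hist1h2bk, chr13:22035571-22035820, plus strand: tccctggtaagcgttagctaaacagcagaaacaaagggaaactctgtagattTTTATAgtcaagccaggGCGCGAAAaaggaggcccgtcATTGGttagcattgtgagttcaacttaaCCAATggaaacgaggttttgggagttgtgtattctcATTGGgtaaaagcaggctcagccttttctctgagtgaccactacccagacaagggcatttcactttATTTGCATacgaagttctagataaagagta
Hist4h4, chr6:136804432-136804681, minus strand: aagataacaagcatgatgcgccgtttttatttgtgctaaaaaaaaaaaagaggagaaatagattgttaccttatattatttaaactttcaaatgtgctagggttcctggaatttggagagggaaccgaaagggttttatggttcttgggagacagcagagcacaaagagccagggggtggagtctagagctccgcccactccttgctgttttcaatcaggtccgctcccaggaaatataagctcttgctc
Hist1h2aa and Hist1h2ba are divergent neighbours with 305 bases between their GENCODE starts, and 220 bases of the sequence printed for Hist1h2ba also lie before the start of Hist1h2aa. Their shared window held the octamer, as did that of Hist1h2bk, which held the E2F letters too. None of the 5 motifs was found before Hist4h4. A match of letters is a description and not evidence that a factor is bound.

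Only some histone genes could be read individually. The table gives each locus the start and end of the whole stretch of overlapping reads it was assembled in, and a stretch can hold many genes. A locus of their own was found for 11 genes, 6 of them in clusters. A further 6 genes, 3 of them in clusters, had a partial locus. It held no other protein-coding gene, but covered only part of the gene or ran beyond it. In all, 51 cluster genes lay in 5 stretches with 2 or more histone genes, 2 other genes (H1f0 and H2afx) lay in stretches with unrelated genes, and 12 had no matching locus. Levels are fragments per kilobase of transcript and 1000000 mapped fragments (FPKM), and fold changes are differences of log2(FPKM + 1), which understate changes of low genes. Tests were made with limma, fitted for each pair of groups across all loci with at least 1 FPKM in 3 of the 6 libraries. P-values were adjusted over all those loci by the Benjamini-Hochberg method, and 0.05 was the threshold. An exact permutation test of 3 against 3 libraries cannot go below 0.1. All 17 genes with an own or partial locus passed the filter in each comparison. The depth, estimated from the steps between the lowest values, was lowest in SSC, at 1.37, 1.76 and 4.59 (in units of 1000000 fragments), against 13.2 to 17.5 in the iPSC libraries. In SSC replicate 3, 1 fragment on a locus of 1 kilobase was worth 0.728 FPKM, so low values in SSC are the least certain.

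Of the 6 cluster genes with a locus of their own, 3 rose and 3 fell in SSCiPSC against SSC, and 2 rose and 3 fell in fiPSC against SSC. Among all loci named for a protein-coding gene, 34.6% were higher and 28.4% lower in SSCiPSC against SSC, and 35.7% were higher and 29.8% lower in fiPSC against SSC. That split depended on the scaling: 2645 were higher and 3014 lower of 9494 in SSCiPSC under quantile normalization and 3826 and 2250 under median-ratio scaling, and in fiPSC 2856 and 3225 of 9590 and 4022 and 2396. The median log2 difference of the 6 genes was 0.74 in SSCiPSC and 0.45 in fiPSC, beside 0.16 and 0.14 over those loci. The genes that rose were the canonical H2B gene Hist1h2bk and the H4 genes Hist4h4 and, in SSCiPSC, Hist1h4i. Those that fell were the testis genes Hist1h2aa and Hist1h2ba and the H2A gene Hist3h2a.

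Hist1h2bk (ENSMUSG00000062727.4, chr13:22035870-22036345, plus strand) encodes a canonical H2B. It was listed at 39.7, 54.5 and 44.9 FPKM in the SSC libraries, at 329, 357 and 459 FPKM in SSCiPSC and at 451, 420 and 438 FPKM in fiPSC. Every iPSC library lay above every SSC library. The log2 difference from SSC was 3.01 ± 0.18 (SE, n = 3 against 3, limma adjusted p = 0.000108) in SSCiPSC and 3.22 ± 0.13 (limma adjusted p = 3.78e-05) in fiPSC. Of the 100-base windows of its transcript, 70.8% also occurred in transcripts of other genes, so reads could have been placed on either copy and its level is uncertain.

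Hist4h4 (ENSMUSG00000096010.2, chr6:136801553-136804415, minus strand), an H4 gene that lies beside H2afj and away from the large clusters, has few such windows (4.34%). Its FPKM were 7.05, 9.85 and 5.49 in SSC, 51.6, 62.0 and 51.8 in SSCiPSC and 68.9, 61.0 and 68.7 in fiPSC. Neither iPSC type overlapped SSC, with log2 differences of 2.76 ± 0.22 (SE) in SSCiPSC (limma adjusted p = 0.000229) and 3.02 ± 0.20 in fiPSC (limma adjusted p = 0.000142).

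Hist1h4i (ENSMUSG00000060639.5, chr13:22040636-22041362, minus strand), another H4 gene, was less even. It stood at 33.3 and 34.1 FPKM in SSC replicates 1 and 3 but at 124 FPKM in SSC replicate 2, the deepest SSC library. The SSCiPSC libraries held 197, 353 and 192 FPKM and the fiPSC libraries 120, 177 and 122 FPKM, so fiPSC overlapped SSC through replicate 2. It rose in SSCiPSC (log2 difference 2.16 ± 0.54, limma adjusted p = 0.0160), and the difference of 1.38 ± 0.52 in fiPSC did not pass the test (limma adjusted p = 0.0684). Without SSC replicate 2 the fiPSC difference was 2.0 and passed; the SSCiPSC difference did not pass without SSCiPSC replicate 2 (1.88) or under quantile normalization (1.33).

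The testis genes moved the other way. Hist1h2ba (ENSMUSG00000050799.3, chr13:23933773-23934156, minus strand), which encodes TH2B, stood at 98.8, 148 and 94.3 FPKM in SSC, at 3.80, 7.23 and 11.6 FPKM in SSCiPSC and at 14.9, 11.9 and 19.6 FPKM in fiPSC. Hist1h2aa (ENSMUSG00000060081.1, chr13:23934462-23934851, plus strand), which encodes TH2A, stood at 117, 105 and 95.2 FPKM in SSC, at 10.6, 11.4 and 17.4 FPKM in SSCiPSC and at 27.9, 17.4 and 29.4 FPKM in fiPSC. All SSC libraries were above all iPSC libraries for both genes, and no library was at 0. The log2 difference of Hist1h2ba from SSC was -3.83 ± 0.37 (SE) in SSCiPSC (limma adjusted p = 0.000411) and -2.80 ± 0.24 in fiPSC (limma adjusted p = 0.000279). That of Hist1h2aa was -2.94 ± 0.21 in SSCiPSC (limma adjusted p = 0.000164) and -2.07 ± 0.21 in fiPSC (limma adjusted p = 0.000493). None of the windows of Hist1h2aa occurred in another gene, against 27.4% of those of Hist1h2ba. In bulk samples, fewer cells that express a gene and less RNA per cell cannot be told apart.

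**Figure D1:**
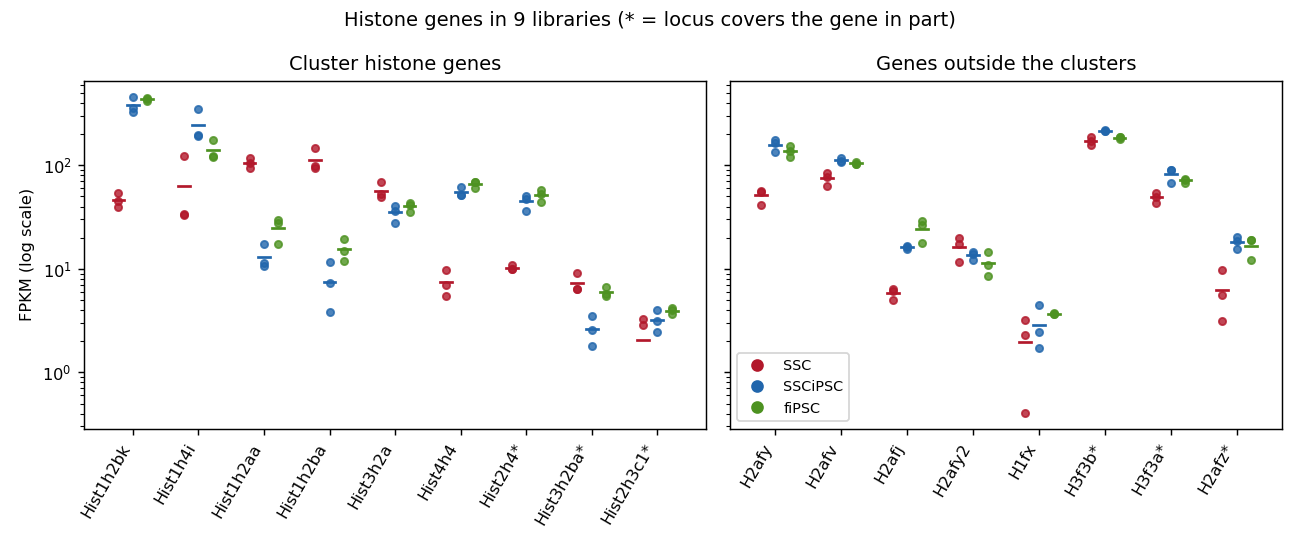
FPKM (log axis) of the 17 histone genes with an own or partial locus in the 9 libraries; points are libraries, short lines group means and asterisks partial loci, and a value of 0 for Hist2h3c1 in SSC replicate 3 lies off the axis. Hist1h2bk and Hist4h4 are higher in every iPSC library than in SSC, whereas Hist1h2aa and Hist1h2ba are lower.

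Hist3h2a (ENSMUSG00000078851.4, chr11:58954685-58956830, plus strand), an H2A gene of a small cluster, fell by less than the testis genes. Its FPKM were 48.9, 69.3 and 52.4 in SSC, 36.5, 28.0 and 40.8 in SSCiPSC and 43.4, 41.4 and 35.4 in fiPSC. All SSC libraries were above the others, with log2 differences of -0.68 ± 0.20 (SE) in SSCiPSC (limma adjusted p = 0.0299) and -0.48 ± 0.16 in fiPSC (limma adjusted p = 0.0475). The differences were -1.22 and -0.96 under quantile normalization and -0.45 and -0.25 under median-ratio scaling. Hist3h2a passed the test in 8 of 14 alternative settings for SSCiPSC and in 4 of 14 for fiPSC, and the annotation places Trim17 over the same bases on the same strand.

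Of the 3 cluster genes with a partial locus, 1 rose and 1 fell in SSCiPSC and 1 rose and 0 fell in fiPSC, beside 34.6% and 35.7% higher and 28.4% and 29.8% lower among loci of protein-coding genes. Hist2h4, an H4 gene on chromosome 3 none of whose windows occur in another gene, stood at 9.94, 10.9 and 9.91 FPKM in SSC, at 36.1, 47.4 and 51.1 FPKM in SSCiPSC and at 58.0, 44.7 and 52.8 FPKM in fiPSC. No iPSC library was as low as SSC, and the log2 differences were 2.01 ± 0.17 (SE, limma adjusted p = 0.000275) in SSCiPSC and 2.22 ± 0.13 (limma adjusted p = 0.000104) in fiPSC. Hist3h2ba, the H2B neighbour of Hist3h2a, stood at 6.45, 9.12 and 6.45 FPKM in SSC, at 1.79, 2.56 and 3.51 FPKM in SSCiPSC and at 5.49, 6.61 and 5.72 FPKM in fiPSC. It fell in SSCiPSC (log2 difference -1.22 ± 0.28, limma adjusted p = 0.0117) and differed by -0.25 ± 0.20 in fiPSC (limma adjusted p = 0.328). The Hist3h2ba locus held the whole gene, but only 28.2% of the locus lay in the gene. Hist2h3c1, an H3 gene all of whose windows occur in another gene, was at or under 4.19 FPKM in every library.

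The 51 cluster genes that share stretches were read locus by locus, since no single gene could be named. The largest stretch, chr13:23531007-23764773 in the table's coordinates, spans 234 kilobases with 29 histone genes, among them the testis linker gene Hist1h1t, and Hfe, and holds 19 loci. Another, chr13:21715232-21812125, holds 15 histone genes in 17 loci. The others, chr13:22041886-22045915, chr3:96209671-96222454 and chr3:96267928-96274231, hold 2, 3 and 2 histone genes. In chr3:96209671-96222454 these lie among 4 protein-coding genes, and its 1 locus, on the minus strand, was not assigned to any of them. Of the 40 loci, 25 passed the filter in SSCiPSC against SSC, of which 21 rose and 0 fell (22 at an unadjusted p under 0.05 by limma, against 56.4% of all loci). In fiPSC against SSC, 30 passed, of which 29 rose and 0 fell (29 at an unadjusted p under 0.05, against 57.6% of all loci). The groups did not overlap, with iPSC above SSC, at 21 and 29 of these loci, against 31.1% and 33.1% of all loci. Over all loci, 26.2% were higher and 24.1% lower in SSCiPSC, and 28.0% were higher and 23.7% lower in fiPSC. Under quantile normalization, 18 rose and 1 fell in SSCiPSC, and 27 rose and 0 fell in fiPSC. The median log2 difference of these loci was 1.93 in SSCiPSC and 2.12 in fiPSC, beside 0.11 and 0.17 over all loci. Most of these differences were smaller under quantile normalization, where the medians over all loci were 0.11 and 0.13. At the plus-strand locus of chr13:22041886-22045915, for example, they were 0.44 and 1.17 in place of 1.38 and 2.05. At 1 of the 25 and 6 of the 30 loci no SSC library reached 1 FPKM, so the filter fixed their direction; of the other 24 in each comparison, 20 and 23 rose and 0 fell. Loci of near-identical genes can share reads, so they are not independent.

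The loci at the highest levels were stranded loci of the 29-gene stretch. The highest, on the plus strand, stood at 325, 376 and 411 FPKM in SSC, 1157, 975 and 1128 FPKM in SSCiPSC and 1399, 1475 and 1136 FPKM in fiPSC. Its log2 differences were 1.55 ± 0.15 (SE) in SSCiPSC and 1.85 ± 0.16 in fiPSC, and 0.34 and 0.70 under quantile normalization. It passed in 13 of 14 alternative settings for SSCiPSC and in 14 of 14 for fiPSC. A minus-strand locus of the same stretch had the largest log2 difference in both comparisons, from 11.1, 10.2 and 12.7 FPKM in SSC to 170, 140 and 169 FPKM in SSCiPSC (3.70 ± 0.15, limma adjusted p = 3.65e-05) and 229, 258 and 228 FPKM in fiPSC (4.28 ± 0.12, limma adjusted p = 1.38e-05). Another minus-strand locus did not follow: it stood at 95.5, 104 and 110 FPKM in SSC, 76.7, 110 and 112 FPKM in SSCiPSC and 262, 151 and 171 FPKM in fiPSC. It was called higher in fiPSC (0.87 ± 0.21, limma adjusted p = 0.0148), though the difference was -0.02 under quantile normalization. In SSCiPSC the difference of -0.06 ± 0.18 did not pass (limma adjusted p = 0.792), and it was -0.94 and called lower under quantile normalization (limma adjusted p = 0.00302) and 0.17, not called, under median-ratio scaling. A locus without strand in the 15-gene stretch had the lowest differences, -1.14 ± 0.41 in SSCiPSC and -0.88 ± 0.42 in fiPSC. Neither passed (limma adjusted p = 0.0570 and 0.128), though 3 and 1 of 13 alternative settings did. Both strands rose: 7 of 8 plus-strand loci and 8 of 9 minus-strand loci were called higher in SSCiPSC, and all 8 and all 9 in fiPSC. The plus-strand locus of chr13:22041886-22045915, where Hist1h2bj (an H2B gene) is the only histone gene on that strand, stood at 84.7, 68.2 and 93.6 FPKM in SSC, 184, 227 and 232 FPKM in SSCiPSC and 349, 316 and 359 FPKM in fiPSC.

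**Figure D2:**
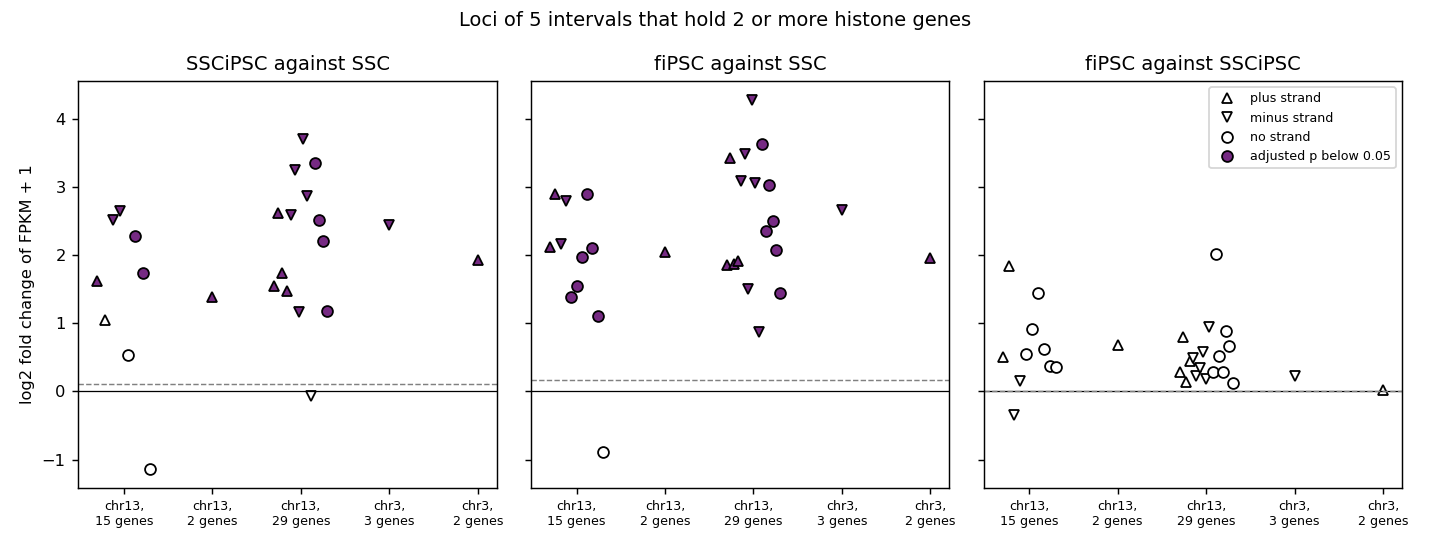
Log2 differences of FPKM + 1 (vertical axis) for each tested locus of the 5 stretches with 2 or more histone genes, by stretch and comparison; triangles give the strand, filled symbols passed an adjusted p of 0.05, and the dashed line is the median of all loci. In SSCiPSC 21 of 25 loci and in fiPSC 29 of 30 loci are called higher than in SSC, and none is called between the iPSC types.

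Summed over its 40 loci, the signal of these stretches was 1673, 1837 and 2235 FPKM in SSC, 7089, 6939 and 7472 FPKM in SSCiPSC and 9658, 9146 and 9129 FPKM in fiPSC. The means were 1915 ± 289 (SD, n = 3), 7167 ± 275 and 9311 ± 301 FPKM, and neither iPSC type overlapped SSC or the other. As a share of all FPKM in a library, the sum was 0.193% to 0.258% in SSC, 0.522% to 0.645% in SSCiPSC and 0.645% to 0.827% in fiPSC. The summed level of Hist1h2aa and Hist1h2ba ran from 189 to 254 FPKM in SSC, from 14.4 to 29.0 FPKM in SSCiPSC and from 29.3 to 49.0 FPKM in fiPSC.

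**Figure D3:**
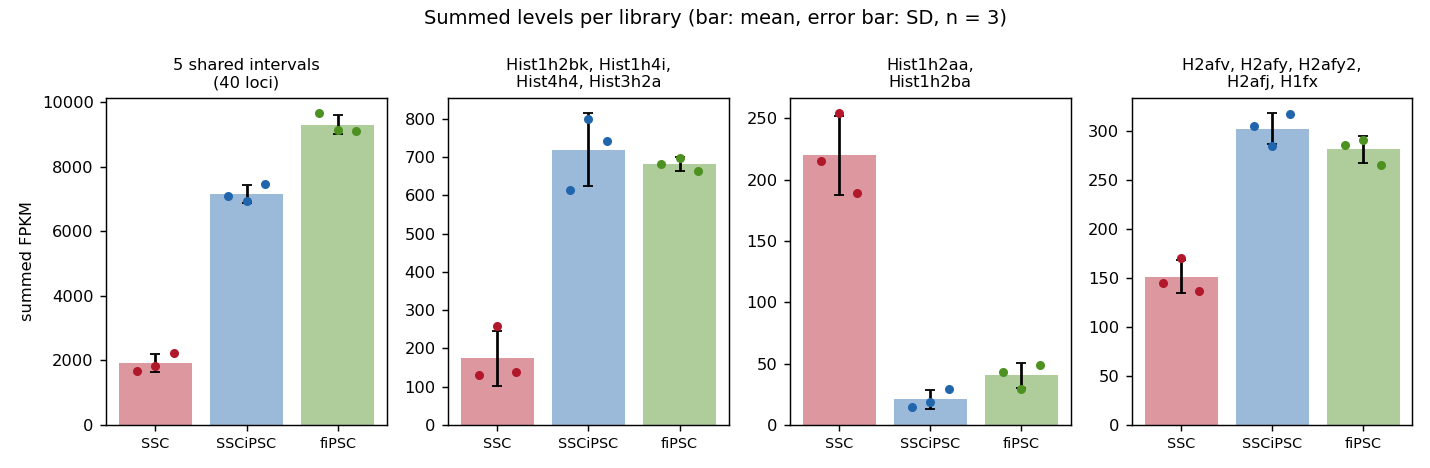
Summed FPKM per library (vertical axes start at 0) for the loci of the shared stretches, for cluster genes with their own locus, for the testis pair and for genes outside the clusters; bars are means, error bars SD and points the 3 libraries of each group. The shared stretches average 1915, 7167 and 9311 FPKM in SSC, SSCiPSC and fiPSC, and the testis pair 220, 20.7 and 40.4 FPKM.

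Of the 5 genes outside the clusters with a locus of their own, 3 rose and 0 fell in each iPSC type against SSC (3 at an unadjusted p under 0.05 by limma in each, against 68.7% and 70.4% of loci of protein-coding genes), with a median log2 difference of 0.57 in SSCiPSC and 0.80 in fiPSC, beside 34.6% and 35.7% of loci of protein-coding genes called higher and medians of 0.16 and 0.14 over those loci. H2afy (ENSMUSG00000015937.15, chr13:56073619-56136361, minus strand) encodes macroH2A1, a variant with a large non-histone domain that is associated with silent chromatin. It stood at 41.5, 56.5 and 55.6 FPKM in SSC, at 163, 134 and 176 FPKM in SSCiPSC and at 137, 154 and 120 FPKM in fiPSC. Neither iPSC type overlapped SSC, and the log2 differences were 1.61 ± 0.18 (SE, limma adjusted p = 0.000600) and 1.41 ± 0.16 (limma adjusted p = 0.000720). Under quantile normalization they were 0.82 and 0.74, and H2afy passed in 14 of 14 alternative settings in each comparison. Its paralog H2afy2, which encodes macroH2A2, stood at 17.5, 19.8 and 11.6 FPKM in SSC, at 13.9, 12.1 and 14.7 FPKM in SSCiPSC and at 10.9, 14.4 and 8.60 FPKM in fiPSC. Its libraries overlapped, with log2 differences of -0.22 ± 0.23 and -0.49 ± 0.26 (limma adjusted p = 0.466 and 0.172), the first of which was 0.01 under median-ratio scaling. The difference between the paralogs was not tested.

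H2afj, a replication-independent H2A, stood at 5.03, 6.05 and 6.42 FPKM in SSC, at 15.5, 16.8 and 16.3 FPKM in SSCiPSC and at 26.3, 17.6 and 29.0 FPKM in fiPSC. It rose in both, by a log2 difference of 1.34 ± 0.17 (SE, limma adjusted p = 0.00106) in SSCiPSC and 1.86 ± 0.22 (limma adjusted p = 0.000793) in fiPSC. H2afv encodes H2A.Z.2, a variant found around active start sites. It stood at 77.4, 85.0 and 63.4 FPKM in SSC, 110, 118 and 107 FPKM in SSCiPSC and 108, 102 and 104 FPKM in fiPSC, and rose by 0.57 ± 0.14 (limma adjusted p = 0.0161) and 0.48 ± 0.13 (limma adjusted p = 0.0210) on the log2 scale, though under quantile normalization the differences were -0.25 and -0.24. H2afv passed the test in 12 of 14 alternative settings for SSCiPSC and in 8 of 14 for fiPSC, with limma adjusted p up to 0.0519 and 0.0787 when 1 library was left out (SSCiPSC replicate 2 and fiPSC replicate 1). The linker gene H1fx (H1.10) was low, at 3.19, 2.32 and 0.407 FPKM in SSC, 1.71, 4.43 and 2.46 FPKM in SSCiPSC and 3.77, 3.68 and 3.65 FPKM in fiPSC, and no difference passed the test.

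Both genes for H3.3, the H3 variant placed outside replication, were covered in part. H3f3b stood at 158, 172 and 187 FPKM in SSC, 219, 213 and 213 FPKM in SSCiPSC and 178, 186 and 189 FPKM in fiPSC, with log2 differences from SSC of 0.32 ± 0.12 (SE, limma adjusted p = 0.0584) and 0.10 ± 0.10 (limma adjusted p = 0.445), neither of which passed. The direction of a call depended on the setting: quantile normalization gave -0.77 and -0.85, both called lower (limma adjusted p = 0.00158 and 0.000800), whereas 4 of the 14 alternative settings called H3f3b higher in SSCiPSC and 1 of 14 called it higher in fiPSC. For H3f3a, 11 loci lay within the gene and were tested, of which 4 rose and 7 did not pass in each iPSC type, beside 26.2% and 28.0% of all loci called higher. At 1 of the 4, chr1:180801643-180801882, all SSC libraries were at 0, so the filter fixed its direction. The one with the highest mean, over 13.5% of the gene, stood at 43.5, 53.9 and 49.8 FPKM in SSC, 90.4, 90.5 and 68.0 FPKM in SSCiPSC and 74.0, 72.4 and 67.9 FPKM in fiPSC. It rose by 0.74 ± 0.16 (limma adjusted p = 0.00988) and 0.54 ± 0.11 (limma adjusted p = 0.00800) on the log2 scale, and under quantile normalization the differences of 0.08 and 0.00 did not pass. The minus-strand locus at chr1:180809961-180813903 stood at 15.8, 19.8 and 12.9 FPKM in SSC, 27.3, 26.9 and 31.0 FPKM in SSCiPSC and 26.0, 26.6 and 30.7 FPKM in fiPSC. It rose by 0.79 ± 0.19 (limma adjusted p = 0.0130) and 0.76 ± 0.18 (limma adjusted p = 0.0128), and its differences under quantile normalization were 0.56, which did not pass, and 0.59. It passed in 12 of 14 alternative settings for SSCiPSC and in 13 of 14 for fiPSC, with limma adjusted p up to 0.0550 and 0.0534 when 1 library was left out (replicate 3 of each iPSC type). H2afz, which encodes H2A.Z.1, was read from a locus without strand, chr3:137864326-137864714, over 9.36% of the gene. Of that locus, 58.6% lay in the gene. H2afz stood at 9.79, 5.62 and 3.14 FPKM in SSC, 15.5, 18.6 and 20.5 FPKM in SSCiPSC and 12.2, 18.8 and 18.8 FPKM in fiPSC. It rose by 1.52 ± 0.36 (limma adjusted p = 0.0127) and 1.38 ± 0.38 (limma adjusted p = 0.0235). On a locus this short, 1 fragment is worth more FPKM than on 1 kilobase. Its SSC values therefore rest on few fragments and are uncertain. H2afz passed in 12 of 14 alternative settings for SSCiPSC and in 10 of 14 for fiPSC, with limma adjusted p up to 0.0551 and 0.0879 when 1 library was left out (SSCiPSC replicate 3 and fiPSC replicate 3).

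The plus-strand locus that holds H1f0, a linker gene of slowly dividing cells, together with Gcat stood at 12.1, 15.0 and 11.0 FPKM in SSC, 14.4, 17.7 and 12.8 FPKM in SSCiPSC and 18.6, 14.8 and 17.9 FPKM in fiPSC, and no difference passed the test. H2afx lies on the plus strand with Dpagt1, and the plus-strand locus of its stretch stood at 5.19, 3.93 and 2.77 FPKM in SSC, 7.09, 7.28 and 6.57 FPKM in SSCiPSC and 5.80, 5.86 and 6.54 FPKM in fiPSC. All iPSC libraries were above SSC there, with log2 differences of 0.71 ± 0.25 and 0.54 ± 0.24 that did not pass (limma adjusted p = 0.0553 and 0.107).

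**Figure D4:**
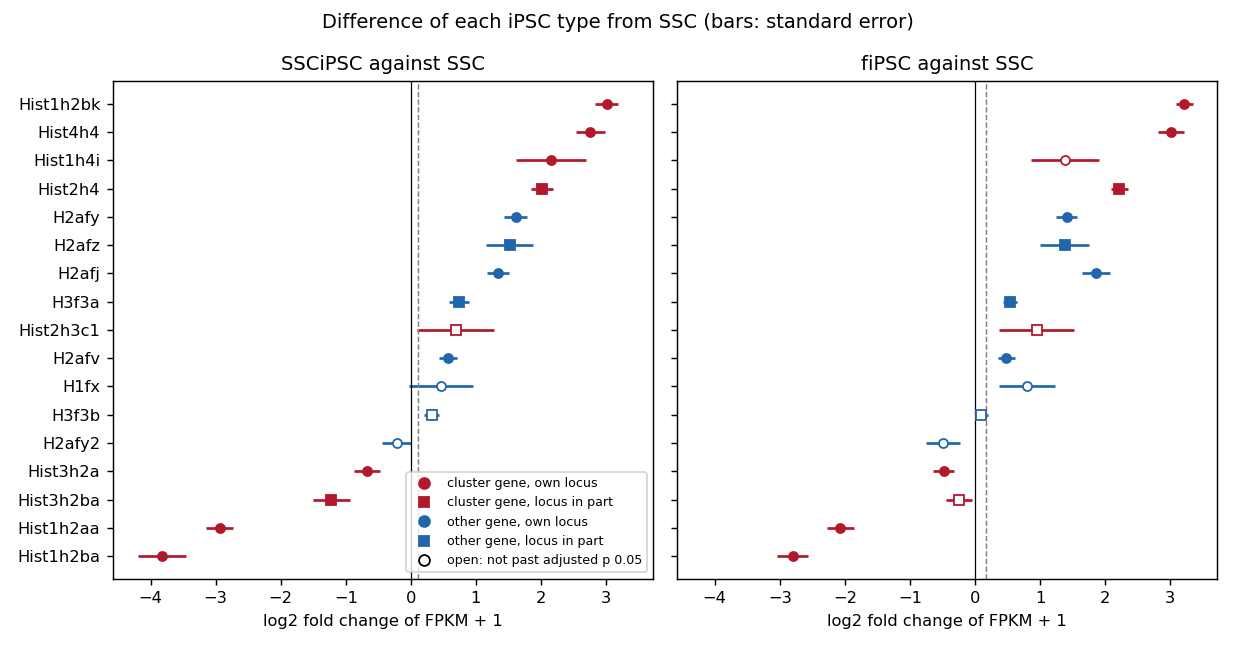
Log2 difference of FPKM + 1 from SSC (horizontal axis) for the 17 histone genes with an own (circles) or partial (squares) locus, in SSCiPSC and fiPSC; bars are standard errors, filled symbols passed an adjusted p of 0.05 and the dashed line is the median of all loci. Values run from -3.83 for Hist1h2ba to 3.01 for Hist1h2bk in SSCiPSC; under quantile normalization the small positive values of H2afv and H3f3b turn negative, and under median-ratio scaling the H2afy2 value in SSCiPSC turns to 0.01.

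The comparison of the iPSC types asked whether the cell of origin left a difference. In fiPSC against SSCiPSC, limma called 0 of 6 cluster genes and 0 of 5 other genes with their own locus, with 3 and 1 at an unadjusted p under 0.05. Among loci of protein-coding genes, 0.0114% were called higher and 0.0341% lower, and 13.0% had such an unadjusted p. Hist1h2ba was higher in all fiPSC than in all SSCiPSC libraries, with a log2 difference of 1.03 ± 0.35 (limma adjusted p = 0.344). For Hist1h2aa, whose groups met at 17.4 FPKM, it was 0.87 ± 0.26 (limma adjusted p = 0.298). Hist1h4i was lower in all fiPSC libraries (-0.79 ± 0.27, limma adjusted p = 0.341) and H2afj higher (0.53 ± 0.19, limma adjusted p = 0.360). The partial locus of Hist3h2ba was higher in all fiPSC libraries (0.96 ± 0.22, limma adjusted p = 0.222), and that of H3f3b was lower in all of them (-0.22 ± 0.09, limma adjusted p = 0.410). Over all loci, every fiPSC library lay above every SSCiPSC library at 9.41% and below at 9.23%.

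In the shared stretches, 0 of 30 tested loci were called between the iPSC types, against 0.0236% called higher and 0.0442% lower over all loci. A limma p under 0.05 before adjustment was reached by 18 of the 30, against 11.7% of all loci. As to overlap, in 18 loci every fiPSC library was above every SSCiPSC library, against 9.41% of all loci, and in 1 every fiPSC library was below, against 9.23%. At 2 of the 30 no SSCiPSC library reached 1 FPKM, so the filter fixed their direction; of the other 28, 16 had such a p, 16 lay wholly above and 1 wholly below. The median log2 difference was 0.46, beside 0.01 over all loci. No single locus was called, and the loci share stretches and sequence.

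Genes that process histone mRNA were mostly higher in both iPSC types than in SSC. Of 14 genes, 10 had a locus and were tested, of which 8 rose and 0 fell in SSCiPSC and 9 rose and 0 fell in fiPSC, beside 34.6% and 35.7% higher and 28.4% and 29.8% lower among loci of protein-coding genes, with median log2 differences of 0.92 and 0.74, though the fiPSC difference of Upf1 was 0.35 as scaled by the authors and -0.06 under quantile normalization. Slbp, which binds the stem-loop, stood at 40.8, 57.0 and 44.5 FPKM in SSC, 102, 90.3 and 90.8 FPKM in SSCiPSC and 82.3, 89.1 and 81.9 FPKM in fiPSC. It rose by 0.99 ± 0.16 (SE, limma adjusted p = 0.00260) and 0.83 ± 0.14 (limma adjusted p = 0.00365) on the log2 scale. The largest differences past the test were those of Eri1, the exonuclease that trims the end of the stem-loop (1.43 in SSCiPSC and 1.34 in fiPSC), followed in SSCiPSC by the cap-linked factor Srrt (1.14) and the cleavage nuclease Cpsf3 (1.03). Lsm11, a subunit of the U7 particle, differed by -0.70 and -0.48 and did not pass. Npat, the S-phase activator of the clusters, had no locus by the rule.

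Of 24 histone chaperone and exchange genes, 18 were tested, of which 14 rose and 1 fell in SSCiPSC and 14 rose and 3 fell in fiPSC, beside the same shares of 34.6% and 35.7% higher and 28.4% and 29.8% lower, with median log2 differences of 1.11 and 1.03, though under quantile normalization the sign turned for Rbbp7 in both (-0.27 and -0.15) and for Hjurp in SSCiPSC (-0.19). The largest rises were those of Chaf1b, a subunit of the factor that loads H3 and H4 at the replication fork (2.59 in SSCiPSC and 2.46 in fiPSC), Npm1 (2.59 and 2.20) and Nasp (2.42 and 1.99), which bind free histones. Daxx and Atrx, which place H3.3 in heterochromatin, rose by 0.91 and 0.98 in SSCiPSC and by 0.88 and 0.67 in fiPSC. Ubn2 and Cabin1 work with Hira, which places H3.3 in active genes. Ubn2 fell by 0.96 and 0.98 on the log2 scale, and Cabin1 differed by -0.60 in SSCiPSC, which did not pass, and fell by 0.80 in fiPSC. Ep400, which exchanges H2A.Z, differed by -0.45 in SSCiPSC, which did not pass, and fell by 0.66 in fiPSC. Hira itself had no locus by the rule.

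All 12 tested genes of the 18 in the S-phase and proliferation list rose in both iPSC types, beside 34.6% and 35.7% of loci of protein-coding genes, with median log2 differences of 2.13 and 2.10 beside 0.16 and 0.14. Mki67, a marker of cycling cells, stood at 48.3, 57.8 and 53.9 FPKM in SSC, 110, 103 and 126 FPKM in SSCiPSC and 103, 108 and 94.3 FPKM in fiPSC, a log2 difference of 1.06 ± 0.14 (SE, limma adjusted p = 0.00104) and 0.92 ± 0.11 (limma adjusted p = 0.000822). Ccne1, the cyclin of S-phase entry, differed by 5.02 and 4.73 and Rrm2, a subunit of ribonucleotide reductase, by 4.92 and 4.83. Top2a, which untangles replicated DNA, differed by 2.58 and 2.29, and Mcm5, a subunit of the replicative helicase, by 2.30 in fiPSC. Pcna had no locus by the rule. The part of proliferation in the histone differences was not tested. Between the iPSC types no gene of the 3 lists was called (0 of 10, 0 of 18 and 0 of 12), with 2, 3 and 0 at an unadjusted p under 0.05 by limma, beside 13.0% of loci of protein-coding genes.

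**Figure D5:**
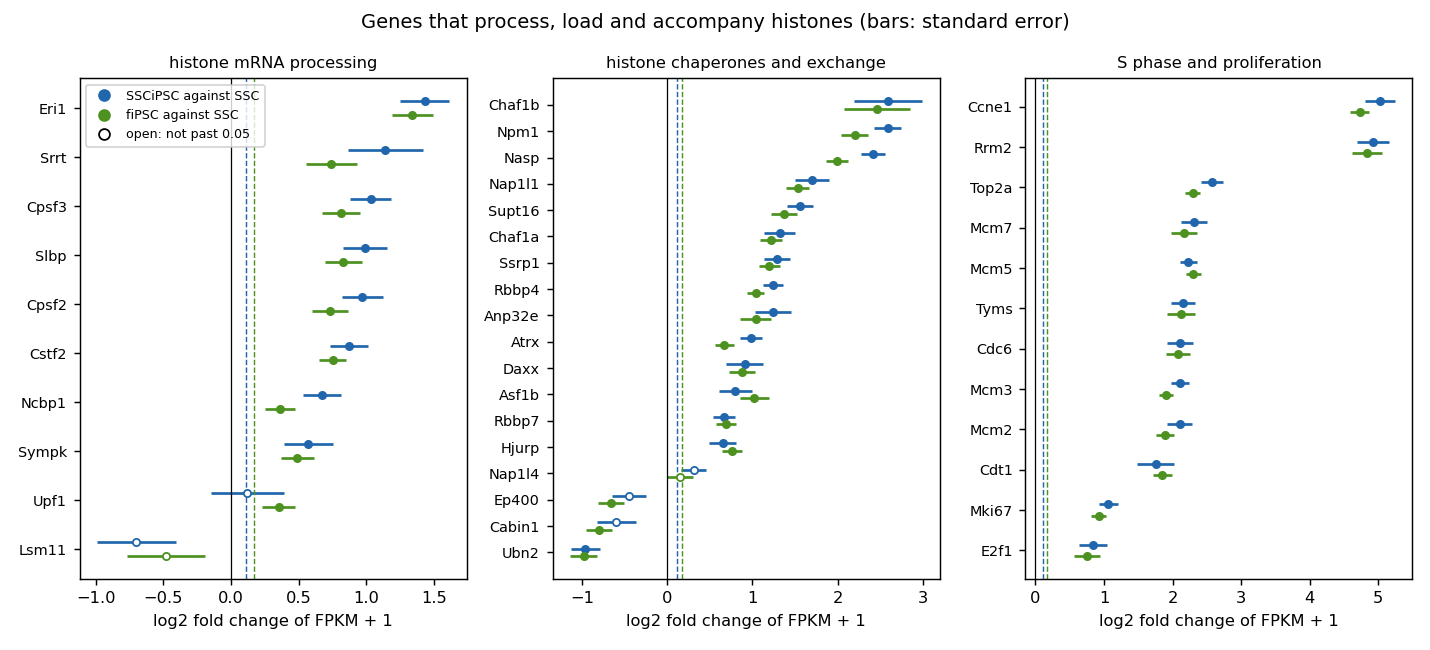
Log2 difference of FPKM + 1 from SSC (horizontal axes) for the tested genes of 3 lists in SSCiPSC (blue) and fiPSC (green); bars are standard errors, filled symbols passed an adjusted p of 0.05 and dashed lines are the medians of all loci. All 12 S-phase genes are called higher, with Ccne1 and Rrm2 between 4.73 and 5.02.

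Summed levels of several marker lists of other testis cells were also lower in both iPSC types, though not every listed marker was called. Summed over the 6 Sertoli markers with a locus (of 9), the level was 1050, 1034 and 833 FPKM in SSC and at most 7.60 FPKM in an iPSC library; Clu was the most abundant and Cst12 was at 0 in every iPSC library. The 5 mast cell markers with a locus (of 6) summed to 107, 425 and 1179 FPKM in SSC and to at most 0.0806 FPKM in iPSC; Tpsab1 was the most abundant and, with Tpsb2 and Mcpt4, was at 0 in every iPSC library. The 3 Leydig markers (of 7) summed to 124 to 236 FPKM in SSC and to at most 0.358 FPKM in iPSC, led by Cyp11a1, with Lhcgr at 0 in iPSC. Germ line markers (12 of 14 with a locus) summed to 709, 856 and 584 FPKM in SSC, led by Dazl, and to 237 to 430 FPKM in iPSC, led by Etv5. Of the 12, 9 fell and 3 (Etv5, Kit and Sall4) rose in each iPSC type, beside 28.4% and 29.8% lower and 34.6% and 35.7% higher among loci of protein-coding genes. For Gfra1, Ret, Zbtb16 and Tdrd1 no iPSC library reached 1 FPKM, so the filter fixed their direction. The meiotic markers (6 of 8) summed to 125 to 166 FPKM in SSC, led by Sycp2, and to 86.1 to 124 FPKM in iPSC, where 2 of the 6 rose in each type and 2 fell in SSCiPSC and 3 in fiPSC, beside those same shares, to which the counts of rises were close. Sycp2, a protein of the synaptonemal complex, averaged 45.3 FPKM in SSC, 0.983 in SSCiPSC and 0.844 in fiPSC, whereas Dmc1, a meiotic recombinase, averaged 5.11, 28.2 and 25.3 FPKM and Hormad1 8.09, 28.8 and 23.1 FPKM. None of the 7 spermatid markers had a locus. The 10 pluripotency genes (of 12) summed to 101 to 117 FPKM in SSC, with Nanog at 0, and to 2011 to 2738 FPKM in iPSC, led by Pou5f1. Pou5f1 and Klf4, both in this list, are also carried behind the tetO promoter. Their FPKM do not separate the transgene from the endogenous gene. Fibroblast or feeder markers (8 of 8) summed to 97.5, 89.5 and 289 FPKM in SSC and to 11.1 to 44.9 FPKM in iPSC, led by Col3a1, and macrophage markers (6 of 8) to 46.6, 14.7 and 141 FPKM in SSC, led by C1qa, and 8.67 to 14.3 FPKM in iPSC, led by Cd68. Peritubular myoid markers (4 of 5) summed to 70.2 to 85.8 FPKM in SSC, led by Acta2, and 8.98 to 12.5 FPKM in iPSC, led by Des. Acta2 averaged 62.5, 4.10 and 4.14 FPKM in SSC, SSCiPSC and fiPSC, whereas some members of these 3 lists ran against their sums. In the same order of groups, Des averaged 3.15, 5.83 and 6.10 FPKM, Cd68 8.94, 10.8 and 11.0 FPKM and Thy1 0.867, 3.09 and 3.90 FPKM. Endothelial markers (4 of 4) summed to 53.1 to 106 FPKM in SSC and 83.4 to 127 FPKM in iPSC, where Pecam1 carried nearly all of the sum. Of them Pecam1 rose, Cdh5 and Kdr fell and Tek did not pass in each iPSC type, beside the same shares of loci of protein-coding genes, and Cdh5 and Kdr averaged 20.7 and 12.6 FPKM in SSC, 0.0113 and 0.0690 FPKM in SSCiPSC and 0.0233 and 0.0316 FPKM in fiPSC. As neither Cdh5 nor Kdr reached 1 FPKM in any iPSC library, the filter fixed their direction. The red blood cell markers (2 of 6), led by Alas2, summed to 4.21 to 14.2 FPKM in SSC and 2.48 to 4.90 FPKM in iPSC. The part of other cell types in the histone levels of SSC was not tested.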

How the data were processed

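Per the submitters' processing notes, the authors trimmed reads with Trimmomatic 0.32, aligned them with TopHat2 2.0.9 and Bowtie2 2.1.0, and assembled and quantified loci with Cufflinks 2.2.1 and Cuffdiff. The deposited values are FPKM per locus and library. The notes name mm9, but the deposited coordinates match GRCm38, which was used. Strand was inferred from blocks in the table's order: 92.8% of stranded loci lay on a gene of that strand, against 38.3% after moving them by 1000000 bases. A gene had a locus of its own where gene and interval overlapped by at least 50% of each, strands did not conflict and no other gene met the rule; of several loci, the one with the highest mean was taken. Genes of the pathway and marker lists were found by the same coordinates. Of 54913 loci with a position, 23605 shared an interval with another.

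Differences of log2(FPKM + 1) were tested with limma 3.58.1 (R 4.3.3), which was tested on simulated data. The members and lists were chosen with earlier results of these data known. Named were all genes outside the clusters with a locus, cluster genes with the largest differences or levels and the testis forms, and for lists the largest differences; Lsm11, Daxx, Atrx, Cabin1 and Ep400 were named after their values were seen. Alternatives were the pseudocount, filter, scaling, variance prior, overlap, replicate block and each library left out. Depths were estimated, so precision is limited most in SSC.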

Additional observations from a re-analysis of the deposited data

How the results depend on the processing

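Across the alternatives, 217 counts stayed within 1.5 times the reported one and 23 did not, and the direction of single histone genes turned in 4 cases with a call in either fit, all under quantile normalization: H2afv to -0.25 in SSCiPSC and -0.24 in fiPSC against SSC, and H3f3b to -0.77 and -0.85. It also turned in 4 cases with no call: against SSC, SSCiPSC differences of H2afy2 (0.01 with median-ratio scaling) and H1fx (-0.01 without SSC replicate 3), and between the iPSC types those of H2afv (0.02 with quantile normalization) and H2afz (0.05 without fiPSC replicate 1). The cause was not tested. With an overlap of at least 80%, fewer genes had a locus and 2 cluster genes were called in each iPSC type against SSC; with partly matched loci added after seeing the data, 5 genes outside the clusters were called in each. With a mean of at least 5 FPKM, fewer loci were tested and 10070 and 10528 of all loci were called in SSCiPSC and fiPSC. Between the iPSC types, where calls were few, all loci gave 11 calls in 1 fit of 9 libraries and 10 with a mean of at least 5 FPKM, and loci of protein-coding genes gave 0 in 1 fit, 2 with that mean and 2 with no filter. Over all loci, the median difference went from 0.11 to 0.29 in SSCiPSC and from 0.17 to 0.35 in fiPSC when libraries were scaled by the median ratio.

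Leaving out each library in turn gave 4 to 6 called cluster genes in SSCiPSC, 4 to 5 in fiPSC and 0 between the iPSC types; 2 to 3, 2 to 4 and 0 genes outside the clusters; 20 to 23, 28 to 30 and 0 to 1 shared-stretch loci; 14477 to 18577, 15301 to 20731 and 6 to 20 of all loci; and 4895 to 5743, 5106 to 6384 and 0 to 3 loci of protein-coding genes. The call in the shared stretches between the iPSC types appeared without SSCiPSC replicate 1.

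Replicate numbers did not pair the samples: same-numbered libraries deviated together with r between -0.24 and 0.03 across loci. With a replicate block, 5 cluster genes were called in each iPSC type and 3 and 2 genes outside the clusters, and between the iPSC types 6 of all loci and 0 loci of protein-coding genes. SSC libraries had the least depth, which limits low values there.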
